A study of Homo sapiens with 4 samples.

Results

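The YAP-TEAD pathway was followed through 10 of the 57820 genes listed in the transcript counts of SK-N-SH cells, a human neuroblastoma line. The genes were picked by symbol: *YAP1*, *WWTR1*, *TEAD1*, *TEAD4*, *LATS2*, *AMOTL1*, *AMOTL2*, *CTGF*, *CYR61* and *ANKRD1*. All 10 were listed, and all 10 passed the filter on low counts. The comparison was between cells that overexpressed the long non-coding RNA *RP5-998N21.4* from a recombinant lentivirus (RP5-998N21.4 OE, 2 libraries) and cells that had received the empty lentivirus with no insert (vector control, 2 libraries). The sample titles call the control cells WT, and their genotype label reads wild type, while their treatment label names the empty vector. Both groups therefore carried a lentiviral vector with an EF1a promoter, which drove the insert in the OE cells alone, and were kept in DMEM with serum. Total RNA was sequenced. The sources used here do not say whether the 2 libraries of a group came from separate cultures, so that p-values measure the spread between these libraries, which may be technical.

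In the Hippo pathway, the kinases STK3 and STK4 activate LATS1 and LATS2, which phosphorylate the coactivators YAP and TAZ (the product of *WWTR1*) and hold them in the cytoplasm. Unphosphorylated YAP and TAZ enter the nucleus and bind the TEAD proteins, which contact DNA, and *CTGF*, *CYR61* and *ANKRD1* are the target genes most often used as readouts of that complex. Several targets, among them *LATS2* and *AMOTL2*, encode proteins that restrain YAP, which closes a feedback loop. In neuroblastoma, cells of an adrenergic and of a mesenchymal state are distinguished by their transcription factors, and YAP is known for its higher level in the mesenchymal state.

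TEAD proteins recognise the letters GGAATG, or CATTCC on the other strand. These letters were sought in the 250 bases before the transcription start of each gene (RefSeq, build GRCh38.p14), and 7 of the 10 genes had an entry in the sequences used. Position -1 is the base just before the start, and a position names the leftmost base of a match. The windows of 4 of the genes and of *NUAK2* and *PTPN14*, 2 further pathway genes described with the lists, are shown 5′ to 3′. The 4 genes had the largest log2 fold changes, in either direction, among the 10. The windows shown include some with and some without the motif. Capitals mark the TEAD letters.
CTGF (chr6:131951373-131951622, minus strand): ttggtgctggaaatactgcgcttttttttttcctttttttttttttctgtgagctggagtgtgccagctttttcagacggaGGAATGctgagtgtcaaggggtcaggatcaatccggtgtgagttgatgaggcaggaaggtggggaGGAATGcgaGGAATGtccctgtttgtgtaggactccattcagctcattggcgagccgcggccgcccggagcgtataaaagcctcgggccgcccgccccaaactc
ANKRD1 (chr10:90921088-90921337, minus strand): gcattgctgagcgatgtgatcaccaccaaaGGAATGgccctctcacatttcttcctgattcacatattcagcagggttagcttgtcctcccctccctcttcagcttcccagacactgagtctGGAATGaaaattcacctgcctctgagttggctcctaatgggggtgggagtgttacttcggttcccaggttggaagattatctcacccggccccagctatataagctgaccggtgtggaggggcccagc
AMOTL2 (chr3:134374448-134374697, minus strand): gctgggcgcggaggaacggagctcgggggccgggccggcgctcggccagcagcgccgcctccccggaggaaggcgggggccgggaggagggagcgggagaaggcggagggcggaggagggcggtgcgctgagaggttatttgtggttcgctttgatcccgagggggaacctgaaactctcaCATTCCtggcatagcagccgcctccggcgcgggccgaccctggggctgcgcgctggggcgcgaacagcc
AMOTL1 (chr11:94768106-94768355, plus strand): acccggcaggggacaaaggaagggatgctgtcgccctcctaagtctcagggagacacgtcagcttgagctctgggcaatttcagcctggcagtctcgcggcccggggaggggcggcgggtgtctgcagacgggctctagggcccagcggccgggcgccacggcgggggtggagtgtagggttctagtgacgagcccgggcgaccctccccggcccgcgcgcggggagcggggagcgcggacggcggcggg
NUAK2 (chr1:205321746-205321995, minus strand): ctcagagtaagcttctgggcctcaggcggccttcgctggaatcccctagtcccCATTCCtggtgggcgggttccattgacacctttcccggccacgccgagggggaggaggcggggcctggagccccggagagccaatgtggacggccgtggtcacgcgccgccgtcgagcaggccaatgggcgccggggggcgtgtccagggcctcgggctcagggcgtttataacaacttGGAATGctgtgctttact
PTPN14 (chr1:214551603-214551852, minus strand): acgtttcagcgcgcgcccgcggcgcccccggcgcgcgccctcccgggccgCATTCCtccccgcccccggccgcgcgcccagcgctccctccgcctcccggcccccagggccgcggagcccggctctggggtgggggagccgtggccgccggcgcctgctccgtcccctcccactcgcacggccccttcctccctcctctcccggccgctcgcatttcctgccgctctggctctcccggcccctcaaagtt

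The *CTGF* window held the motif 3 times, at positions -169, -104 and -95, and the *ANKRD1* window 2 times, at -220 and -128. Of the 2 *AMOTL2* windows, the one shown held it at -69 and the other did not hold it. The *YAP1* window, not printed, held it at -162. No match stood in the windows of *AMOTL1*, *LATS2* and *WWTR1*, which says only that these letters are not in those bases. *NUAK2* held it at -197 and -18, and *PTPN14* at -200. Of 35116 windows of the same length, 11.9% held the motif at least 1 time, 0.94% at least 2 times and 0.0826% at least 3 times. Motif matches are a description of the letters and were not tested for binding.

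The libraries held 23785164 to 28307591 counts, and 20528 genes passed the filter on low counts. *RP5-998N21.4* itself had 32 and 33 counts in vector control against 2407 and 2808 in OE, in the direction of the labels. Levels are given as CPM, the counts per 1000000 counts of a library after TMM scaling. The log2 values of the libraries correlated at 0.912 to 0.931 across genes. The neuroblastoma label was checked against 12 adrenergic markers: 11 were measured, and *TH*, which encodes tyrosine hydroxylase, had 0 counts in every library. Of 8 markers of other tissues, *PECAM1* was not analysed here, *ALB*, *CD3E*, *HBB* and *MYH6* were at 0, *PTPRC* reached 4 counts, and *GFAP* and *EPCAM* stayed at or below 1.28 CPM.

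Among the 10 genes, *AMOTL1* was 5.22-fold higher in RP5-998N21.4 OE than in vector control, and *ANKRD1* was 1.43-fold higher. Other targets lay the opposite way from *ANKRD1*: *AMOTL2* was 1.63-fold lower, *CTGF* 1.37-fold lower and *CYR61* 1.22-fold lower. The coactivators and *TEAD1* were 1.11- to 1.26-fold lower, *LATS2* was 1.15-fold lower, and *TEAD4* overlapped between the groups. The libraries were bulk RNA, in which fewer cells expressing a gene and less RNA per cell cannot be told apart.

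The study tested with DESeq2, and its thresholds were an adjusted p below 0.01 together with a log2 fold change beyond 0.5 in either direction. With these, edgeR's quasi-likelihood test called 0 of the 10 genes, as it called 0% of all 20528 genes. At an adjusted p under 0.05 it called *AMOTL1* alone of the 10, beside 0.594% of all genes. Before adjustment, edgeR's p was under 0.05 for 7 of the 10, of which 2 were higher and 5 lower, beside 10.1% of all genes that were higher and 10.7% that were lower. Both OE libraries lay above both control libraries for 2 of the 10 genes and below them for 7, beside 27.8% and 27.6% of all genes. The DESeq2 Wald test at the study's thresholds called *AMOTL1* and *ANKRD1* as higher and *AMOTL2* as lower, beside 4.35% of all genes called higher and 4.42% called lower. The median log2 fold change was -0.23 over the 10 genes and 0.01 over all genes tested. With 2 libraries a group, the smallest two-sided p of an exact permutation test is 0.333, so that no gene could be tested that way.

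**Figure D1:**
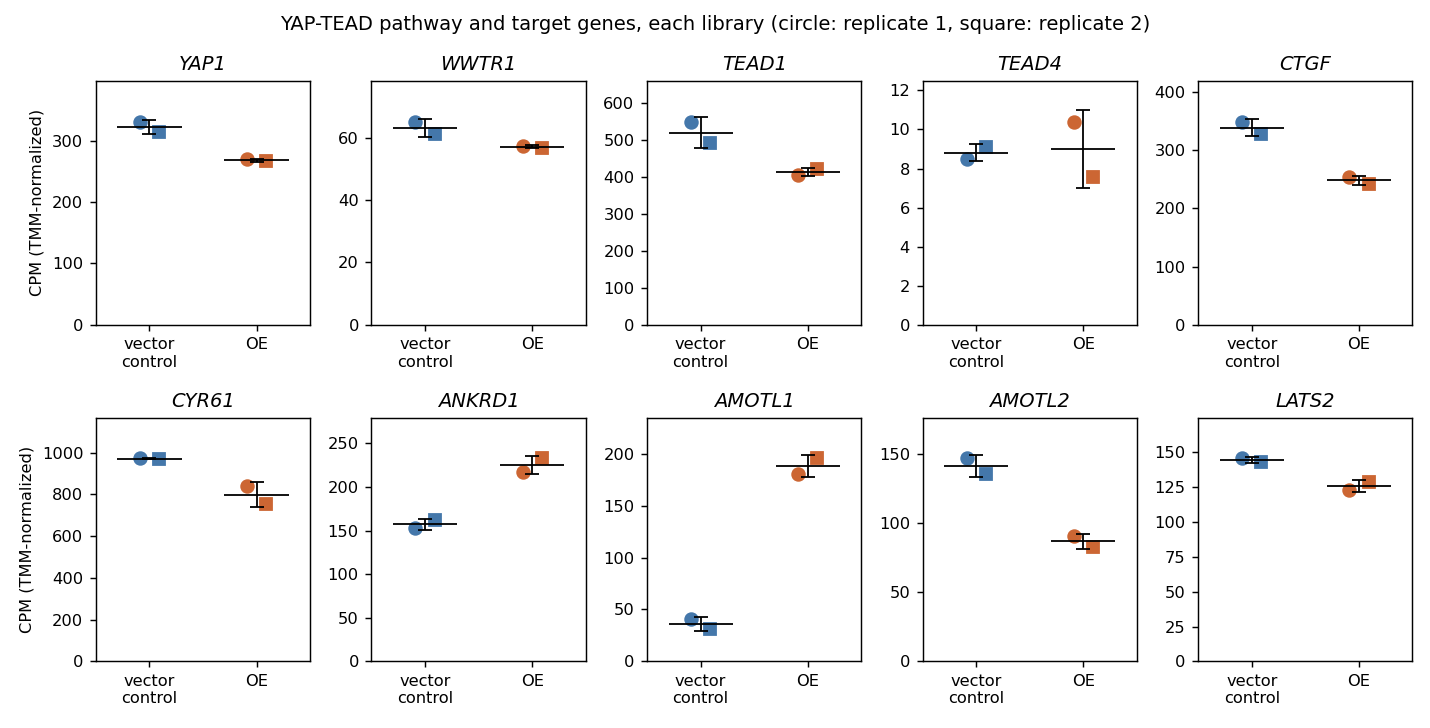
TMM-normalized CPM (y axis, from 0) of the 10 genes in each library of the vector control (blue) and OE (orange) groups, with the mean as a horizontal line and the SD as an error bar (n = 2). *AMOTL1* is the gene with the largest fold between its groups, at 31.4 and 40.7 CPM against 181 and 196 CPM, and *TEAD4* is the gene whose groups overlap.

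*YAP1* (chr11:101981178-102104155 in GRCh37, the build to which the reads were mapped, on the plus strand) encodes the coactivator YAP. Its level was 331 and 315 CPM in vector control and 270 and 267 CPM in OE. The OE libraries differed from each other by less than either differed from a control library, and the groups did not overlap. The log2 fold change was -0.27 ± 0.06 (SE, n = 2 a group, edgeR adjusted p = 0.138), and DESeq2 gave an adjusted p of 2.90e-05 with a difference below the study's fold threshold. *WWTR1* (chr3:149235022-149454501, minus strand), which encodes the paralogous coactivator TAZ, stood at 65.1 and 61.2 CPM in vector control and at 57.4 and 56.8 CPM in OE. These groups did not overlap either, but the log2 difference of -0.15 ± 0.09 (SE) did not pass with edgeR (adjusted p = 0.434) or with DESeq2 (adjusted p = 0.259). Per length, as RPKM, *WWTR1* made up 17.4% and 17.3% of the summed level of the 2 coactivators in vector control and 18.6% in each OE library.

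*TEAD1* (chr11:12695968-12966284, plus strand) encodes a TEAD factor, the DNA-binding partner of YAP and TAZ. It measured 549 and 490 CPM in vector control and 406 and 421 CPM in OE. Both OE values were below both control values, and the gap between the groups (421 to 490 CPM) was close to the gap within the control pair. On the log2 scale the difference was -0.33 ± 0.08 (SE, edgeR adjusted p = 0.148, DESeq2 adjusted p = 0.0011). *TEAD4* (chr12:3068496-3149842, plus strand), another member of the family, was at 8.50 and 9.11 CPM in vector control and at 10.4 and 7.57 CPM in OE. OE replicate 1 lay above the controls and OE replicate 2 below them, and the log2 difference was 0.03 ± 0.21 (SE, edgeR adjusted p = 0.956), with either sign depending on the library left out (-0.22 without OE replicate 1, 0.24 without OE replicate 2). *TEAD1* made up 60.3% to 75.2% of the RPKM of *TEAD1* to *TEAD4* in the libraries, with the highest share in vector control replicate 1, where *TEAD2* was at 8.07 CPM against 24.6 to 34.0 CPM in the other 3 libraries. These shares are uncertain, because the transcript that held nearly all *TEAD1* counts had no length in the annotation used and the canonical transcript's length stood in for it.

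*LATS2* (chr13:21547175-21635725, minus strand), the kinase that phosphorylates YAP and TAZ and is itself a YAP target, was at 146 and 143 CPM in vector control and at 123 and 129 CPM in OE. The groups did not overlap. The log2 difference was -0.20 ± 0.07 (SE), with an adjusted p of 0.25 from edgeR and 0.0186 from DESeq2, and thus passed neither at the study's threshold.

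*AMOTL1* (chr11:94439597-94609913, plus strand) and *AMOTL2* (chr3:134074189-134094321, minus strand) encode angiomotin-like scaffolds that bind YAP at cell junctions and keep it out of the nucleus. The *AMOTL1* counts were 948 and 737 in vector control and 4536 and 5656 in OE, which gave 40.7 and 31.4 CPM against 181 and 196 CPM. The lowest OE library (181 CPM) was far above the highest control library (40.7 CPM). The log2 fold change was 2.38 ± 0.17 (SE, n = 2 a group), with an adjusted p of 0.0445 from edgeR and 4.57e-41 from DESeq2. When any library was left out, the log2 fold change was 2.20 to 2.58. Such a fit leaves a group without a replicate, so that it cannot test the call at 0.05. With a replicate block edgeR's adjusted p was 0.296, and the call at 0.05 was lost.

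For *AMOTL2* the values were 147 and 136 CPM in vector control and 90.8 and 83.2 CPM in OE. Both OE libraries were below both controls, opposite to *AMOTL1*. This gave a log2 fold change of -0.70 ± 0.09 (SE), with an adjusted p of 0.0792 from edgeR and 3.11e-11 from DESeq2. The ratio of *AMOTL1* to *AMOTL2* in CPM was 0.277 and 0.23 in vector control and 1.99 and 2.35 in OE. *AMOT*, the founding gene of the family, was at 47.6 and 47.5 CPM in vector control and at 49.2 and 46.6 CPM in OE, groups that overlapped (log2 difference 0.01 ± 0.09, SE, and -0.03 without OE replicate 1).

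*CTGF* (chr6:132269316-132272512, minus strand), a secreted matricellular protein, had 8123 and 7713 counts in vector control and 6368 and 6998 in OE, or 349 and 328 CPM against 254 and 242 CPM. Each OE library was below each control library. edgeR gave a log2 fold change of -0.45 ± 0.07 (SE, adjusted p = 0.0893), and the DESeq2 adjusted p of 1.02e-09 came with a log2 fold change of -0.45, short of the study's fold threshold. Its relative *CYR61* (chr1:86046444-86050272, plus strand), also secreted, was at 973 and 969 CPM in vector control and at 840 and 756 CPM in OE. The OE pair was farther apart than the control pair, and the groups did not overlap. The log2 difference was -0.28 ± 0.07 (SE, edgeR adjusted p = 0.15, DESeq2 adjusted p = 0.000568).

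*ANKRD1* (chr10:92671853-92680844, minus strand), a nuclear and sarcomeric ankyrin-repeat protein, had 3558 and 3804 counts in vector control and 5462 and 6736 in OE. In CPM these were 153 and 162 against 218 and 233, with both OE libraries above both controls. The corresponding log2 fold change was 0.52 ± 0.08 (SE, edgeR adjusted p = 0.0892, DESeq2 adjusted p = 1.31e-09). The 3 readout genes thus did not lie on 1 side: the ratio of *ANKRD1* to *CTGF* in CPM was 0.438 and 0.493 in vector control and 0.858 and 0.963 in OE. The windows of both genes held the TEAD letters more than 1 time, as shown above.

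**Figure D2:**
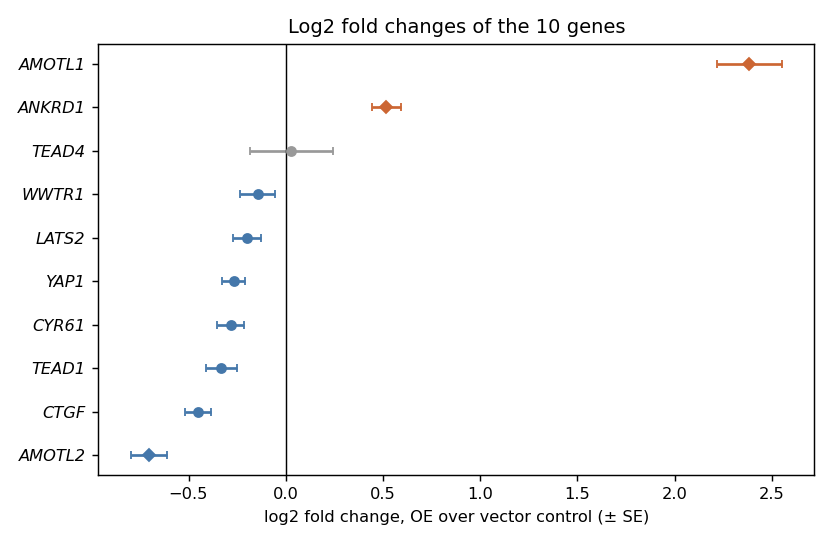
Log2 fold change of OE over vector control (x axis) with its SE from edgeR for each of the 10 genes (y axis), n = 2 libraries a group. Orange points have both OE libraries above both controls, blue points the reverse, the grey point (*TEAD4*) overlaps, and diamonds mark genes that DESeq2 called. *AMOTL1* stands at 2.38, *ANKRD1* at 0.52 and the others between -0.70 and 0.03.

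Levels were put in order per length, as RPKM over the canonical transcript of each gene. Over all 4 libraries the mean was 388 RPKM for *CYR61*, 125 for *CTGF*, 107 for *ANKRD1*, 54.7 for *YAP1*, 49.5 for *TEAD1*, 24.3 for *LATS2*, 23.5 for *AMOTL2*, 12.5 for *AMOTL1*, 11.9 for *WWTR1* and 5.20 for *TEAD4*. The 3 secreted or nuclear readouts thus stood above the coactivators and the TEAD genes. Neighbours whose ranges over libraries overlapped were *CTGF* and *ANKRD1*, *YAP1* and *TEAD1*, *LATS2* and *AMOTL2*, *AMOTL2* and *AMOTL1*, and *AMOTL1* and *WWTR1*. Within groups, *AMOTL1* was last in vector control (4.01 ± 0.74 RPKM, SD, n = 2) and stood above *AMOTL2* in OE (21.0 ± 1.16 against 17.9 ± 1.10 RPKM). *CTGF* was above *ANKRD1* in vector control (145 ± 6.23 against 87.9 ± 3.59 RPKM) and below it in OE (106 ± 3.58 against 126 ± 6.01 RPKM). *AMOTL2* was above *LATS2* in vector control (29.1 ± 1.60 against 26.0 ± 0.37 RPKM) and below it in OE (17.9 ± 1.10 against 22.6 ± 0.77 RPKM). The place of *TEAD1* in this order is uncertain for the same reason as its share.

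The counts were deposited per transcript. *CTGF* and *ANKRD1* had counts on 1 transcript each, and 1 transcript held at least 99.3% of the counts of *YAP1*, *TEAD1*, *LATS2* and *AMOTL2* in every library. For *AMOTL1*, ENST00000317829 held nearly all counts in 3 libraries, while vector control replicate 2 had 435 counts there and 302 on ENST00000433060, a transcript of almost the same span that had 0 counts elsewhere. The assignment between these transcripts thus varied between libraries of 1 group, and on the transcript with the highest mean count alone the log2 fold change of *AMOTL1* was 2.66 ± 0.49 (SE, edgeR adjusted p = 0.158), where the call at 0.05 was lost.

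*TEAD4* differed most in this respect. Its counts were on ENST00000358409 in 3 libraries (194, 207 and 256), whereas OE replicate 2 had 0 there, 166 on ENST00000543035 and 53 on ENST00000359864. For *CYR61*, the short ENST00000480413, for which the annotation defines no coding sequence, took 1023 and 945 counts in vector control and 0 and 2439 in OE, so that the OE libraries lay on either side of the controls. The coding transcript ENST00000451137 had 21640, 21828, 21080 and 19420 counts in the same order. *WWTR1* had 93.8% to 99.3% of its counts on ENST00000465804.

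**Figure D3:**
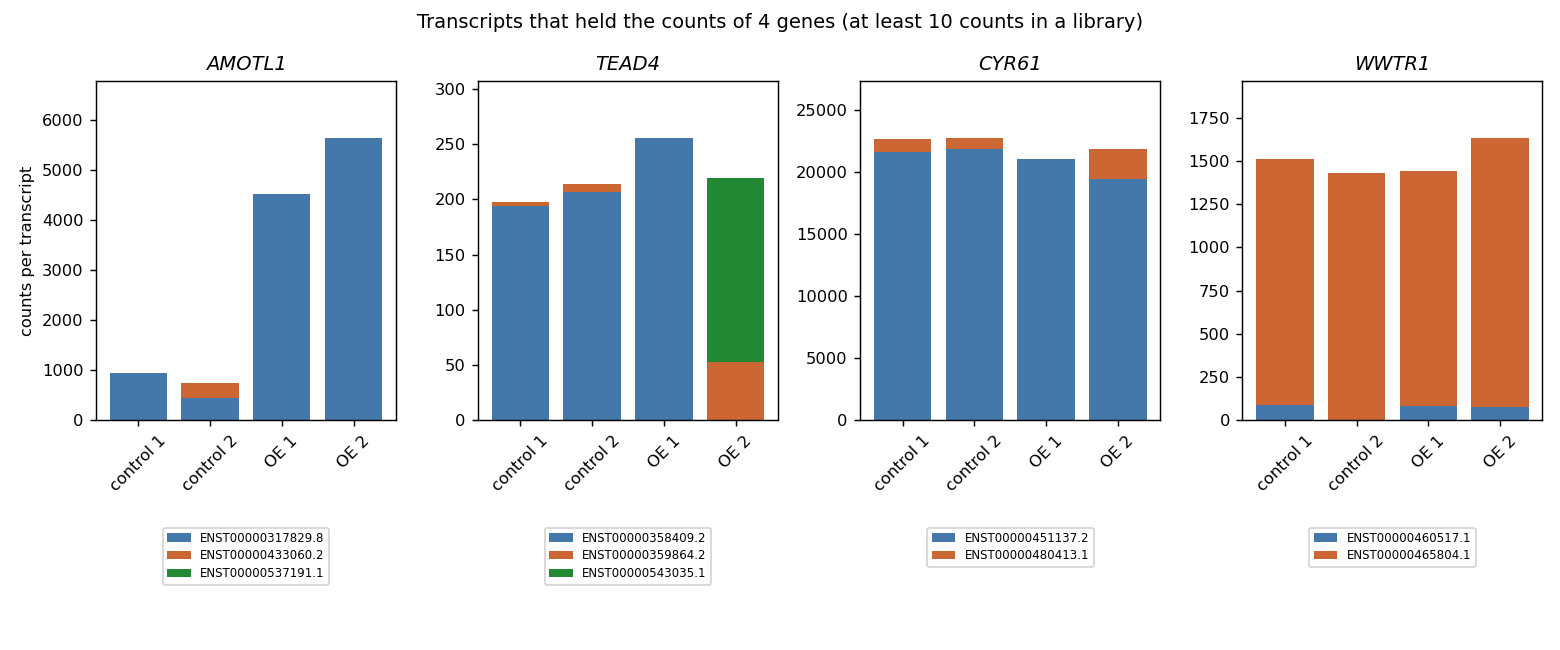
Counts per transcript (y axis, from 0, not scaled for depth) in each library for *AMOTL1*, *TEAD4*, *CYR61* and *WWTR1*, stacked by transcript, for transcripts with at least 10 counts in a library. The *TEAD4* counts of OE replicate 2 lie on other transcripts than those of the remaining 3 libraries, and the second *AMOTL1* transcript appears in vector control replicate 2 only.

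Reads shared with other loci could touch these values, because the use of strand in counting was not given in the sources used here. The antisense *WWTR1-AS1* had 0 and 45 counts in vector control and 16 and 10 in OE, and the antisense *LINC01013* at *CTGF* had at most 6. The genes overlapping *AMOTL1*, *AMOTL2* and *YAP1* that were listed had 0 to 3 counts. These counts are small beside the 1437 or more of *WWTR1* and the 6368 or more of *CTGF* in a library. *YAP1* also has 3 named pseudogenes, and how reads were split among them is not known here.

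The nearest patterns to the secreted readouts were sought among the 11458 genes that averaged 10 CPM or more, by the root mean square distance of centred log2 CPM over the 4 libraries. Nearest to *CTGF* were *PLS3*, *PTPRS* and *HOXC6*, at distances of 0.0085 to 0.0165 and with log2 fold changes of -0.47, -0.46 and -0.47. Nearest to *CYR61* were *C1orf198*, *SMAGP* and *LMAN2L*, at 0.0089 to 0.0094, with log2 fold changes of -0.29, -0.29 and -0.30. With 4 libraries this likeness is a description.

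Upstream of YAP, a list of 31 Hippo kinases and scaffolds was examined, of which 30 were tested and *MAP4K1* was not (0 to 9 counts). The list includes *LATS2*, *AMOTL1* and *AMOTL2*, which are also among the 10 genes above. At the study's thresholds edgeR called 0 of the 30. At an adjusted p under 0.05 it called *AMOTL1* as higher and *PTPN14* as lower, beside 0.594% of all genes. At an unadjusted p under 0.05, 3 were higher and 7 lower (10.1% and 10.7% of all genes). Both OE libraries were above both controls for 5 and below for 14 (27.8% and 27.6% of all genes), and 11 overlapped. The median log2 fold change was -0.12. DESeq2 called 2 as higher (*AMOTL1* and *DCHS1*) and 4 as lower (*STK3*, *AMOTL2*, *PTPN14* and *NF2*), beside 4.35% and 4.42% of all genes.

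*PTPN14* (chr1:214522043-214725792, minus strand), a tyrosine phosphatase that binds YAP and holds it in the cytoplasm, showed the largest difference of the list. It was at 419 and 401 CPM in vector control and at 45.8 and 45.9 CPM in OE. The replicates of each group lay close together and the groups were 8.94-fold apart (log2 fold change -3.16 ± 0.07, SE, edgeR adjusted p = 0.0109). With any library left out its log2 fold change was -3.20 to -3.13. With a replicate block its edgeR adjusted p was 0.193, so that the call at 0.05 was lost. *DCHS1*, a cadherin that signals to the pathway from neighbouring cells, was at 45.4 and 41.8 CPM in vector control and at 73.4 and 77.6 CPM in OE (log2 fold change 0.79 ± 0.10, SE, edgeR adjusted p = 0.0764). The kinase genes *STK4* and *STK3* lay in opposite directions. *STK4* was at 188 and 168 CPM in vector control against 222 and 229 CPM in OE (0.34 ± 0.08, SE, edgeR adjusted p = 0.152), and *STK3* at 19.7 and 18.9 against 11.9 and 13.9 CPM (-0.59 ± 0.14, SE, edgeR adjusted p = 0.147). On the *STK3* transcript with the highest mean count alone it was -5.56 ± 2.26 (SE, edgeR adjusted p = 0.349). *MOB1A*, the cofactor of the LATS kinases, was at 248 and 249 CPM against 198 and 211 CPM (-0.28 ± 0.07, SE, edgeR adjusted p = 0.146), and the kinase gene *LATS1* at 113 and 103 against 115 and 116 CPM, groups that stood just apart (0.10 ± 0.09, SE, which became 0.02 when vector control replicate 2 was left out and 0.16 when its partner was).

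Some members of this list varied more between replicates than between groups. *RASSF1* was at 0.859 and 27.3 CPM in vector control and at 31.8 and 29.1 CPM in OE, and *MAP4K5* at 73.7 and 65.2 against 12.5 and 60.3 CPM. In all, 3 of the 30 differed by more than 2-fold within a pair of replicates, and 3946 of all 20528 genes did.

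Among the DNA-binding partners, the 8-gene list of TEAD factors and VGLL cofactors had 5 genes tested. At the study's thresholds edgeR called 0 of them, beside 0% of all genes. DESeq2 also called 0, beside 4.35% of all genes called higher and 4.42% called lower. The unadjusted edgeR p was under 0.05 for 2, *TEAD1* lower and *VGLL4* higher, beside 10.7% and 10.1% of all genes. *VGLL1*, *VGLL2* and *VGLL3*, cofactors that compete for TEAD, had 0 counts in every library. *VGLL4*, a TEAD-bound repressor, was at 217 and 215 CPM in vector control and at 258 and 247 CPM in OE (log2 fold change 0.23 ± 0.06, SE, edgeR adjusted p = 0.174). *TEAD2* and *TEAD3* overlapped between the groups.

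A list of 22 genes known as YAP/TAZ targets in other cells was then examined, 5 of which are among the 10 genes above. *FOXF2* had 0 counts, and 21 were tested. At the study's thresholds edgeR called 0 of them, and at an adjusted p under 0.05 it called *PTPN14* and *NUAK2*, both lower, beside 0.594% of all genes. At an unadjusted p under 0.05, 5 were higher and 9 lower, beside 10.1% and 10.7% of all genes. Both OE libraries were above both controls for 7 and below for 11, beside 27.8% and 27.6% of all genes. The median log2 fold change was -0.20, with 9 of the 21 above 0 and 12 below. The summed level was 6309 and 6345 CPM in vector control and 5418 CPM in each OE library. Over all tested genes the sum was 1.02e+06 CPM in vector control and 9.77e+05 to 9.79e+05 CPM in OE. *PTPN14*, part of the list's sum, was at 419 and 401 CPM in vector control and at 45.8 and 45.9 CPM in OE. DESeq2 called *ANKRD1* as higher and *CCDC80*, *AMOTL2*, *PTPN14* and *NUAK2* as lower (4.35% and 4.42% of all genes).

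*NUAK2* (chr1:205271191-205290873, minus strand), a kinase of the AMPK family, was at 170 and 185 CPM in vector control and at 61.5 and 59.8 CPM in OE. The highest OE value was well under the lowest control value (log2 fold change -1.55 ± 0.09, SE, edgeR adjusted p = 0.0347). With any library left out, the log2 fold change of *NUAK2* was -1.62 to -1.49. With a replicate block edgeR's adjusted p was 0.296, so that the call at 0.05 was lost. All *NUAK2* counts lay on ENST00000367157. Its own counts were thus unchanged when every gene was read from its transcript with the highest mean count. In that fit of all genes its edgeR adjusted p was 0.0546. *CCDC80*, a secreted matrix protein, was at 186 and 167 CPM against 98.5 and 89.8 CPM (-0.91 ± 0.10, SE, edgeR adjusted p = 0.069). Higher in both OE libraries were *AXL*, a receptor tyrosine kinase, at 190 and 188 against 233 and 251 CPM (0.36 ± 0.07), *CRIM1*, a transmembrane protein, at 1136 and 1078 against 1345 and 1311 CPM (0.26 ± 0.05), and *IGFBP3*, which binds insulin-like growth factors, at 25.2 and 25.6 against 31.5 and 35.3 CPM (0.40 ± 0.11). Of the 22 genes, 16 had a promoter window, and 8 of these held the TEAD letters: *AMOTL2*, *CTGF*, *ANKRD1*, *AXL*, *FOXF2*, *PTPN14*, *NUAK2* and *TGFB2*. A gene counted here if any of its windows held them, whereas the 11.9% of all 35116 windows is a share of windows. Of the 2 *AXL* windows, 1 held them, at -212. Windows with the motif thus belonged to genes that were higher in OE and to genes that were lower.

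**Figure D4:**
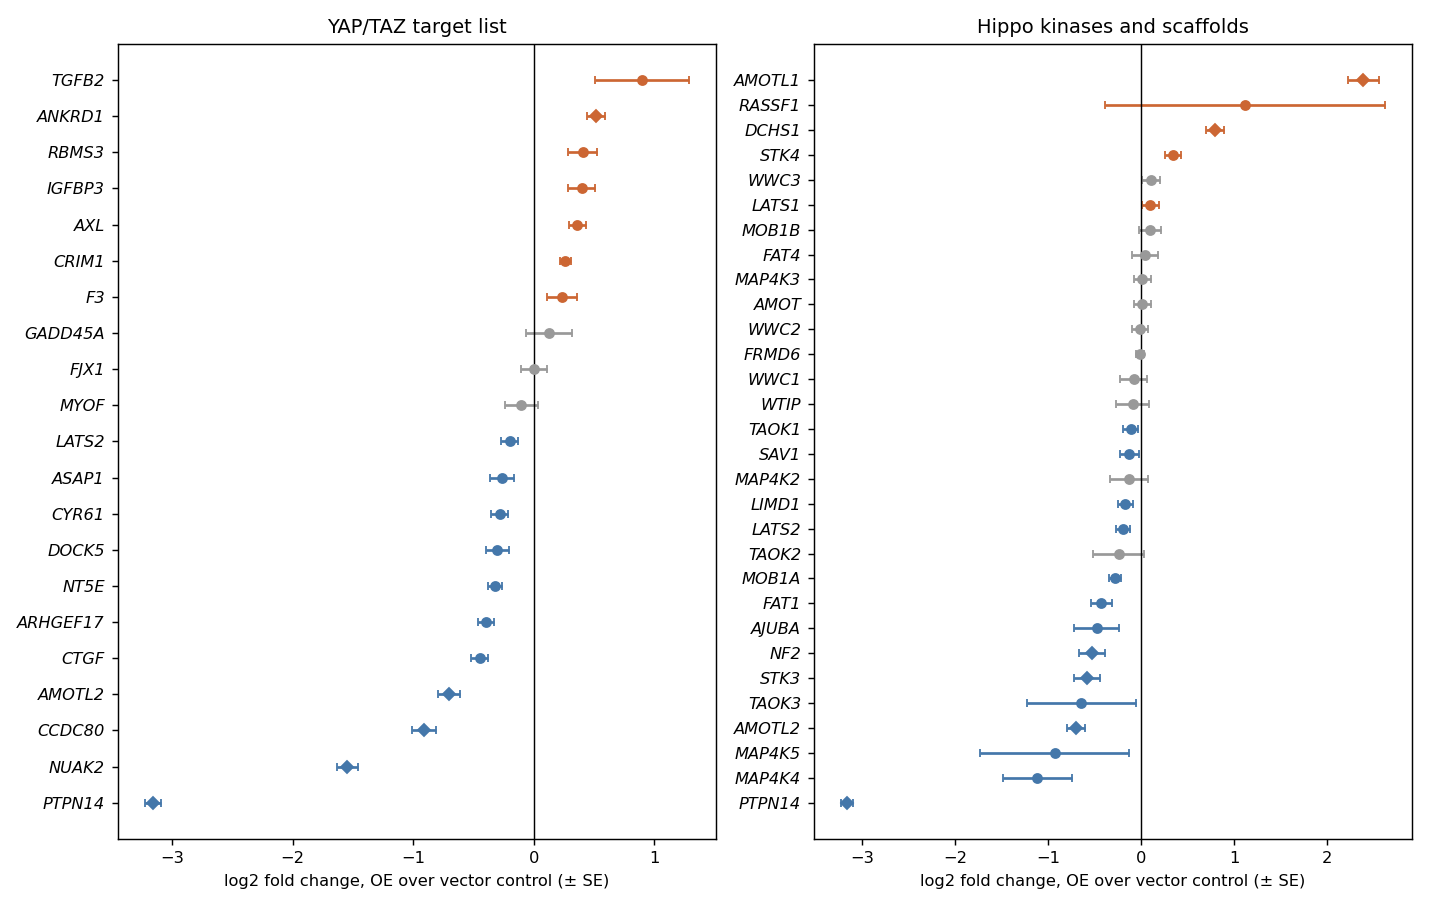
Log2 fold change of OE over vector control (x axis) with its SE from edgeR for the tested genes (y axis) of the YAP/TAZ target list (left) and of the Hippo kinases and scaffolds (right), n = 2 libraries a group. Orange: both OE libraries above both controls. Blue: both below. Grey: overlap. Diamonds: called by DESeq2. *PTPN14* (-3.16), in both panels, and *AMOTL1* (2.38) stand farthest from 0.

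The CCN family, to which *CTGF* and *CYR61* belong, had 6 genes listed and 5 tested. At the study's thresholds edgeR called 0 of them, beside 0% of all genes. DESeq2 also called 0, beside 4.35% of all genes called higher and 4.42% called lower. The unadjusted edgeR p was under 0.05 for *CTGF* and *CYR61* alone, both lower, beside 10.7% of all genes. *NOV* was at 4.21 and 5.41 CPM in vector control and at 3.43 and 3.70 CPM in OE (log2 fold change -0.43 ± 0.21, SE, with -0.24 without vector control replicate 2 and -0.61 without replicate 1), *WISP2* and *WISP3* were at or below 2.75 CPM, and *WISP1* had 0 to 2 counts. *CTGF* and *CYR61* are also known to respond to serum and stress, so the immediate early genes were set beside them. Of 15 listed, 14 were tested, edgeR called 0 and DESeq2 called *FOSB* and *EGR1* as lower (4.42% of all genes). At an unadjusted p under 0.05 (edgeR), 3 were higher and 4 lower (10.1% and 10.7% of all genes), with a median log2 fold change of -0.03. *EGR1*, a zinc-finger factor, was at 33.8 and 27.3 CPM against 15.8 and 14.9 CPM (-0.99 ± 0.15, SE, edgeR adjusted p = 0.0933). Among the AP-1 subunits, *JUNB* was at 407 and 444 against 334 and 304 CPM (-0.41 ± 0.08, SE) and *FOSL2* at 468 and 451 against 409 and 394 CPM (-0.20 ± 0.05, and 0.84 ± 3.32 on its transcript with the highest mean count), while *JUND* was at 204 and 219 against 270 and 238 CPM (0.26 ± 0.10, and 0.17 without OE replicate 1) and *FOSL1* at 158 and 164 against 176 and 180 CPM (0.15 ± 0.07). *DUSP1*, a phosphatase of MAP kinases, was at 34.6 and 34.5 against 47.5 and 48.1 CPM (0.47 ± 0.09), and *IER2* at 269 and 270 against 312 and 301 CPM (0.18 ± 0.06). Their part in the *CTGF* and *CYR61* values was not tested.

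Of the adrenergic neuroblastoma markers, edgeR called 0 of 11 at the study's thresholds (0% of all genes) and 1 at an adjusted p under 0.05 (0.594% of all genes). All 11 tested lay higher in both OE libraries than in both controls, as did 27.8% of all genes, and their summed level was 758 to 798 CPM in vector control and 1217 to 1255 CPM in OE. At an unadjusted p under 0.05 (edgeR), 9 of the 11 were higher, beside 10.1% of all genes. *KLF7*, a zinc-finger factor, was at 153 and 130 against 235 and 232 CPM (0.72 ± 0.11), and *DBH*, which makes noradrenaline, at 22.7 and 23.5 against 41.5 and 40.2 CPM (0.82 ± 0.09). *ISL1*, a homeobox factor, did not pass and varied over 2-fold within the controls (16.6 and 39.8 CPM against 57.1 and 56.5 CPM, 1.01 ± 0.47, with 0.51 without vector control replicate 1 and 1.77 without replicate 2), and 2 of the 11 varied by that much between replicates. DESeq2 called 7 of the 11 as higher, beside 4.35% of all genes.

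Of the 11 mesenchymal markers tested, both OE libraries were above both controls for 4 and below for 4 (27.8% and 27.6% of all genes), and at an unadjusted p under 0.05 (edgeR) 2 were higher and 4 lower (10.1% and 10.7%). DESeq2 called 0 as higher and 3 as lower (*CD44*, *SNAI2* and *PRRX1*), beside 4.35% and 4.42% of all genes. *CD44*, a hyaluronan receptor, was at 613 and 565 CPM in vector control and at 354 and 365 CPM in OE (log2 fold change -0.71 ± 0.06, SE, edgeR adjusted p = 0.0615), and *SNAI2*, a repressor of epithelial genes, at 71.0 and 67.5 against 43.8 and 42.6 CPM (-0.68 ± 0.09, SE, edgeR adjusted p = 0.078, and -0.67 ± 4.2 on its transcript with the highest mean count). *PRRX1*, a homeobox factor that marks the mesenchymal state, was at 353 and 443 against 288 and 224 CPM (-0.64 ± 0.19, and -0.71 ± 4.64 on its transcript with the highest mean count). *NOTCH2*, a Notch receptor, was at 522 and 491 against 565 and 569 CPM (0.16 ± 0.05), and *AXL*, *FOSL1* and *FOSL2* are given above. *VIM*, which encodes vimentin, was at 348 and 350 CPM in vector control and at 1254 and 376 CPM in OE (1.22 ± 0.63, with 0.11 without OE replicate 1 and 1.84 without OE replicate 2). The summed level was 3181 to 3247 CPM in vector control and 2864 to 3811 CPM in OE, the wider range coming with the *VIM* value of OE replicate 1. The part of the cell-state markers in the values of the 10 YAP-TEAD genes was not tested.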

How the data were processed

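RNA of 4 SK-N-SH libraries (2 vector control, 2 RP5-998N21.4 OE) was sequenced on an Illumina platform after TruSeq preparation. After quality control in FastQC and trimming in Trimmomatic, the authors aligned the reads to hg19 (Bowtie2), and they deposited raw, unnormalized counts for 196520 transcripts. The submitters' processing notes name Bowtie2 2.0.4, Picard 2.21.6, StringTie 2.1.6 and DESeq2. The counting tool, its annotation and its use of strand are not given in the sources used here.

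Counts were summed per gene ID. Groups followed the treatment label. Differences were tested with edgeR 4.0.16 (TMM, filterByExpr, quasi-likelihood, Benjamini-Hochberg adjustment over 20528 genes) in R 4.3.3, and the script was checked on simulated data. DESeq2 1.42.0, limma-voom (limma 3.58.1), other scalings and filters, a replicate block and leaving out each library were alternatives. RPKM is CPM per kilobase of the canonical transcript. Positions are from the GENCODE annotation on GRCh37. Library totals of 23785164 to 28307591 counts and 2 libraries a group limit the precision.

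The genes and lists were chosen with earlier results of these data known. Named list genes were those edgeR called or, with none at the study's thresholds, up to 4 a direction with the smallest unadjusted p, a mean of at least 5 CPM and groups that do not overlap. Other list genes named with values (*AMOT*, *TEAD2*, *RASSF1*, *MAP4K5*, *NOV*, *ISL1*), and genes named as called by DESeq2, were chosen after their values were seen. Some marker genes that the rule names are not reported here.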

Additional observations from a re-analysis of the deposited data

How the results depend on the processing

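The log2 fold changes of 9 of the 10 genes kept their sign under every alternative run. *TEAD4* (0.03) turned with limma-voom (-0.0004), without vector control replicate 1 and without OE replicate 1 (over all libraries left out in turn, -0.22 to 0.24), and on the transcript with the highest mean count (-0.75). For *AMOT* the sign turned without OE replicate 1 (-0.0281 to 0.0482 over all libraries left out in turn). On the transcript with the highest mean count *FOSL2* was at 0.84 ± 3.32 (SE, edgeR adjusted p = 0.947) and *STK3* at -5.56 ± 2.26 (adjusted p = 0.349). There *SNAI2* and *PRRX1* had SEs of 4.2 and 4.64 (adjusted p = 0.971 and 0.973). *NUAK2*, whose counts all lay on ENST00000367157, had an edgeR adjusted p of 0.0546 in that fit of all genes. The number called at the study's thresholds was 0 in edgeR for the 10 genes, for the YAP/TAZ target list and for the Hippo list. It was 3, 5 and 6 with DESeq2, which called 1800 of all genes, and 1, 2 and 2 at an adjusted p under 0.05 with no minimum fold change, where 122 of all genes passed. Testing every gene with at least 1 count in total called 0, 1 and 1 (*PTPN14* in both lists) and 9 of all genes, and using the transcript with the highest mean count called 1 gene, none of these. The deviations of same-numbered libraries correlated at -0.016. This shows no strong effect shared by library number, but it cannot tell whether same-numbered libraries were prepared together. With a replicate block, 0 of the 10 genes were called, as without it, but edgeR's adjusted p was 0.193 for *PTPN14* and 0.296 for *AMOTL1* and *NUAK2*, the log2 fold change of *AMOTL1* was 2.40, and 3060 genes had an unadjusted p under 0.05, against 4269 without it. The cause of these differences was not tested. With 2 libraries a group, a gene that missed the threshold may still differ.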

Other observations

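The *PTPN14* locus was read transcript by transcript after its values had been seen. The full-length ENST00000366956 had 9617 and 9280 counts in vector control and 1057 and 1177 in OE. ENST00000491277 (chr1:214701619-214724945 in GRCh37), which has the same start as ENST00000366956 and no defined coding sequence, had 132 and 132 counts in vector control and 85 and 143 in OE. These transcript counts are not scaled for depth. ENSG00000228470, which overlaps *PTPN14* on the same strand, had 0 counts in both vector control libraries and 90 and 118 in OE, and the antisense pseudogene *KRT18P12* had 0 in both and 12 and 14. *NUAK2* had its counts on ENST00000367157, with 3947 and 4352 in vector control and 1543 and 1730 in OE.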
